A study of Mus musculus with 3 samples.

Results

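The genes of the matrix metalloproteinases (Mmp), of the related secreted Adamts proteases and of their tissue inhibitors (Timp) were followed in healing mouse skin. The rule for membership was the gene symbol, Mmp, Adamts or Timp followed by a number, which leaves out the Adamts-like (Adamtsl) genes. Of the 19938 genes with a single-symbol probe set, 44 were members, namely 22 Mmp, 18 Adamts and 4 Timp genes. Mmp15 and Adamts2 were not analysed here.

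Back skin of C57Bl/6 mice aged 6 weeks, with no genotype or drug named, received an excision of 1.5 cm2 through epidermis and dermis. All mice were wounded, and unwounded skin was not analysed here. Healing tissue, meaning dermis with any epidermis over it, was taken on day 10, day 12 or day 14 after wounding, away from the hair follicles of the wound edge. Tissue from 3 mice was pooled for each day, and each pool was measured on 1 one-colour array. No replicate error could therefore be estimated, no test was made, and each difference compares single pools. A difference is given on the log2 scale, later day minus earlier day, or as a fold, and the number of arrays limits its precision.

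Mmps are zinc-dependent proteases that are made with an inhibitory propeptide and cut collagens, gelatin, elastin, proteoglycans and many signalling proteins. Adamts proteases carry thrombospondin repeats and include enzymes that trim procollagens and enzymes that cut the large proteoglycans versican and aggrecan. Timps bind the active site of these enzymes and block it. In skin wounds, keratinocytes, fibroblasts, macrophages and neutrophils each make a part of this set while the epidermis migrates and granulation tissue is rebuilt into scar.

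The 3 arrays had median log2 expression of 7.53, 7.55 and 7.53 on days 10, 12 and 14 over 35556 probe sets. The 3 arrays gave an identical value for 23.1% of probe sets, so a difference of 0.00 is a coarse value. Among genes with a pair of probe sets (777 genes), the robust SD of a probe set's difference was 0.04 for day 12 minus day 10, 0.05 for day 14 minus day 12 and 0.07 for day 14 minus day 10. The 95th percentile of a probe set's deviation from the mean of its pair was larger, at 0.19, 0.14 and 0.24 in the same order. That spread is technical and does not cover the animals. All 9 basal keratinocyte markers and all 10 fibroblast markers were above the median level of all genes, and so were 13 of 14 macrophage markers and 4 of 12 neutrophil markers. The Y-linked gene Eif2s3y stood at 5.49, 9.59 and 8.38 on days 10, 12 and 14, while Xist stood at 12.30, 12.05 and 12.28, and the part of the pools' sex in any difference was not tested.

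A row of 10 Mmp genes lies on mouse chromosome 9, and 5 of them differed by at least 1.5-fold between days, as did 6.70% of all genes. Their order in the RefSeq annotation of GRCm38.p6 is Mmp13, Mmp12, Mmp1b, Mmp3, Mmp1a, Mmp10, Mmp8, Mmp27, Mmp20 and Mmp7, with no other protein-coding gene between them. The stretches shown here run from 120 bases before to 30 bases after a transcription start given by RefSeq, and are written 5′ to 3′. They were chosen to show these 5 genes and 2 neighbours, Mmp1a and Mmp7, whose values were equal on all days. Mmp1a and Mmp7 stood at 5.57 and 6.27, below each array's lower quartile over genes. Whether either was above background is not known. The 7-letter capitals mark an AP-1 motif (TGAGTCA, read on either strand, so also TGACTCA), the letters bound by Fos and Jun proteins, and the 6-letter capitals mark TATAAA on the strand shown.

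Mmp13, chr9:7272394-7272543, plus strand: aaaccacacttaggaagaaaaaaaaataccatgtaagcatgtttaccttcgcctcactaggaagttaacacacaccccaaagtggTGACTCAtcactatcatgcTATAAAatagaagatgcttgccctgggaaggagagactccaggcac
Mmp12, chr9:7347254-7347403, plus strand: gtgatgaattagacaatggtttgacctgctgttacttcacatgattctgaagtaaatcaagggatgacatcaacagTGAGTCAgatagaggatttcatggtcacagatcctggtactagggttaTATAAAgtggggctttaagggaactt
Mmp3, chr9:7445702-7445851, plus strand: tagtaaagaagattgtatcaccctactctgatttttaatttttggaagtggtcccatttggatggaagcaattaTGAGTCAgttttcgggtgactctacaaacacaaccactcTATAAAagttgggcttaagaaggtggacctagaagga
Mmp10, chr9:7502222-7502371, plus strand: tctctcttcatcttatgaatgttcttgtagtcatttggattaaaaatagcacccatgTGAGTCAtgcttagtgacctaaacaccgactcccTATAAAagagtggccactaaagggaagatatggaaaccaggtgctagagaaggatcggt
Mmp8, chr9:7558309-7558458, plus strand: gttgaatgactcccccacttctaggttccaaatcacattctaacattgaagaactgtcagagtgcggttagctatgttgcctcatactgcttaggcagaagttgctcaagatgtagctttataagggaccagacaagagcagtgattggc
Mmp1a, chr9:7464021-7464170, plus strand: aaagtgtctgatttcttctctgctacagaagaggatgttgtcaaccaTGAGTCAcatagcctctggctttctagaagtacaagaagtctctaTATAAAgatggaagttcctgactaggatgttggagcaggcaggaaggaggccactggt
Mmp7, chr9:7691970-7692119, plus strand: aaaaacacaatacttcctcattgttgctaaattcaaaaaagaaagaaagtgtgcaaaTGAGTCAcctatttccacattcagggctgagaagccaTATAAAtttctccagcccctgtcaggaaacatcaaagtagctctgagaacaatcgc

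RefSeq gave 33 promoter windows of 300 bases for 30 of the members. No window was given for Mmp2, Mmp9, Mmp16, Mmp17, Mmp19, Adamts4, Adamts5, Adamts6, Adamts7, Adamts8, Adamts10, Adamts15, Adamts16 and Adamts19. These members were not searched, so whether they hold either motif is not known. The AP-1 motif was found in 7 of the 33 windows, 1 for each of 7 genes, and all 7 genes belong to the row on chromosome 9. The window runs from 250 bases before to 50 bases after the start, and the motif began between 35 and 93 bases before it. Mmp13, Mmp3, Mmp10, Mmp1a and Mmp1b hold it, as does 1 of 2 windows of Mmp12 and 1 of 2 windows of Mmp7, whereas Mmp8, Mmp27 and Mmp20 do not within these windows. Of all 32851 promoter windows, 5.20% hold this motif. TATAAA was found in 10 of the 33 windows, 1 for each of 10 members that include the same 7, and in 8.32% of all windows. A match is a description of the sequence and says nothing of whether a factor was bound in the wound.

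Across the 3 days, 13 of the 44 members (29.5%) differed by at least 1.5-fold between their highest and lowest day, which was the case for 6.70% of all genes. They were Mmp3, Mmp8, Mmp9, Mmp10, Mmp12, Mmp13, Mmp23, Adamts4, Adamts5, Adamts6, Adamts12, Adamts15 and Timp3. At 2-fold these numbers were 8 members and 1.98% of all genes. Of the 44 members, 27 were above the median mean level of all genes. Of these 27, 12 reached 1.5-fold, against 10.5% of the 9969 genes above that level. The other 31 members stayed under 1.5-fold, and 7 of them, Mmp1a, Mmp1b, Mmp7, Mmp17, Mmp20, Mmp21 and Mmp25, had equal values on all 3 arrays.

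**Figure D1:**
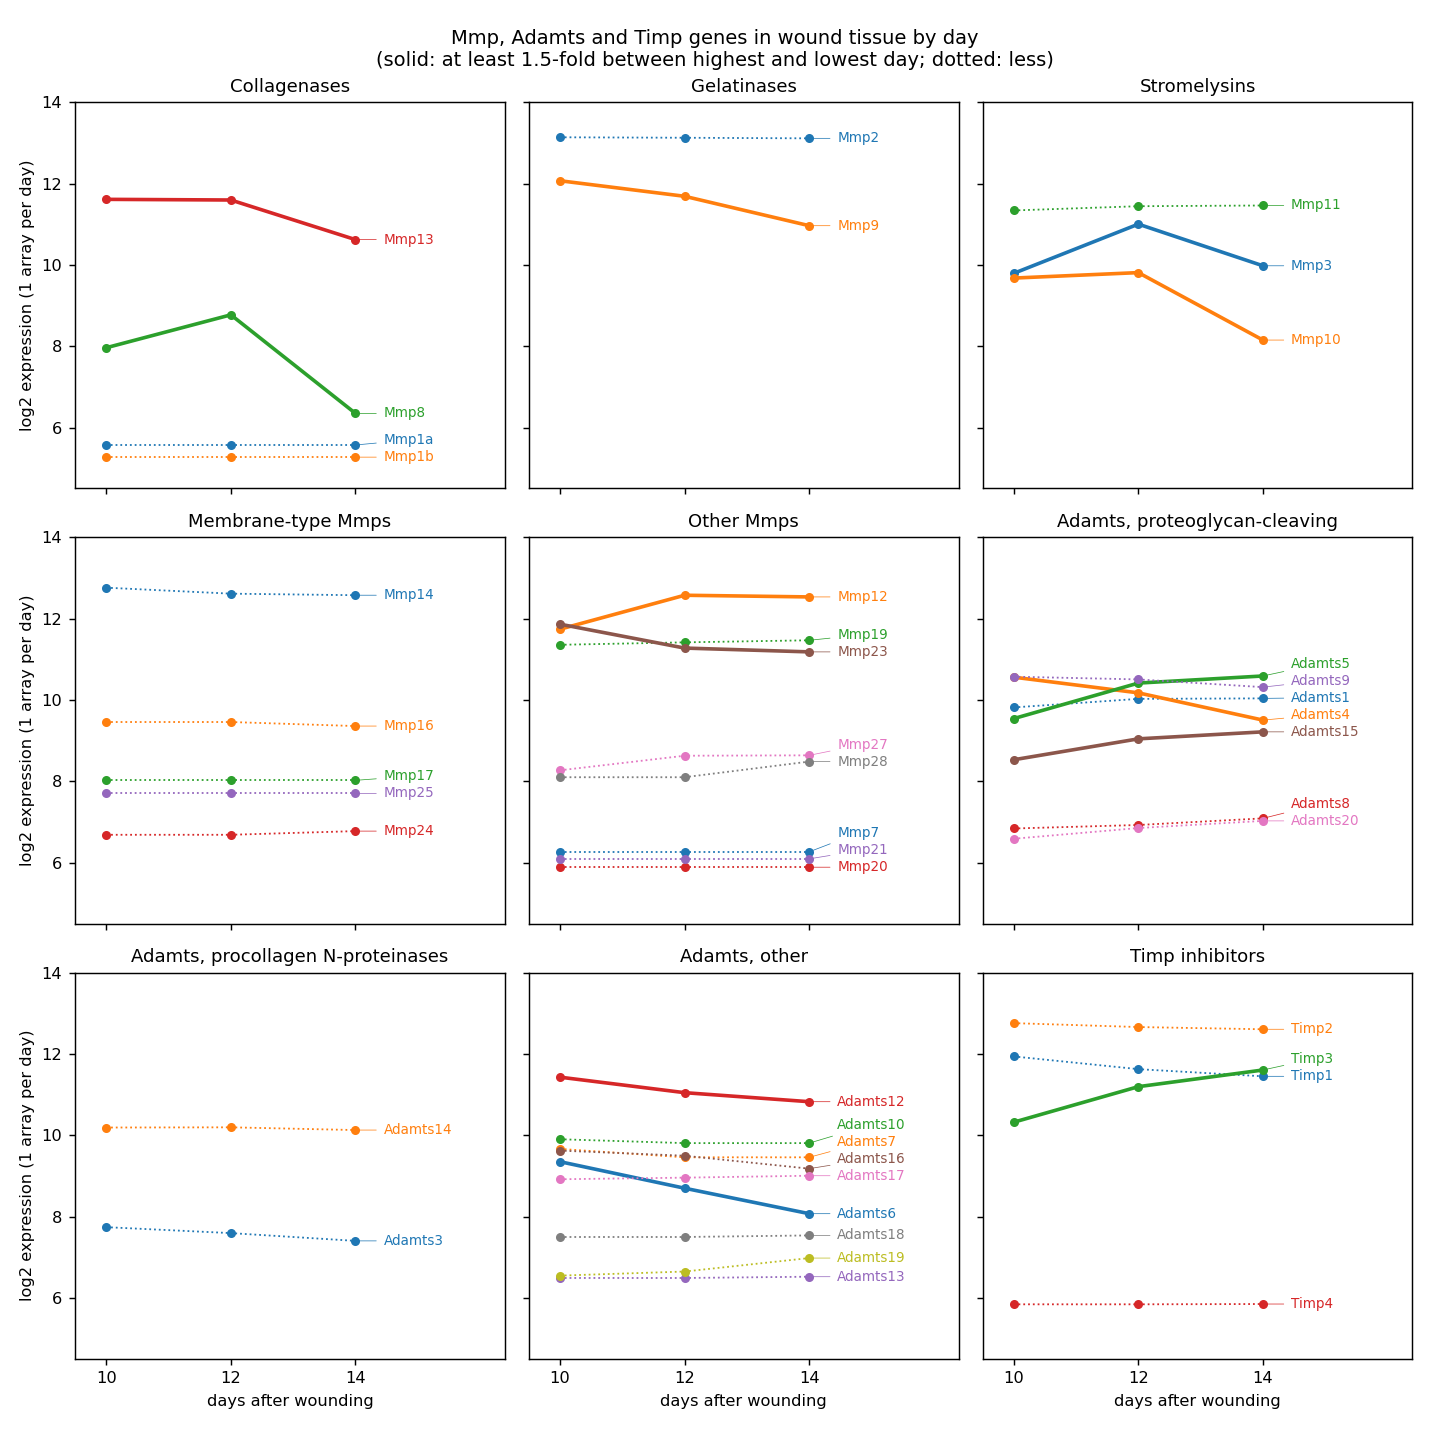
Log2 expression of each of the 44 genes on days 10, 12 and 14 after wounding, in 1 panel per subgroup, with 1 pool of 3 mice and 1 array per point. Solid lines mark the 13 genes at least 1.5-fold apart between their highest and lowest day, such as Mmp8 and Timp3, and heights of different genes cannot be compared because each has its own probes.

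The first pair of days asked what differed as the wound passed from day 10 to day 12. On day 12, 5 members were at least 1.5-fold higher than on day 10, against a background of 2.33% of all genes. These were Mmp3, Timp3, Adamts5, Mmp12 and Mmp8. Another 2 members, Adamts6 and Mmp23, were at least 1.5-fold lower, against 0.958% of all genes. Mmp23 lay at the threshold, with −0.59, and came to −0.58, short of it, under quantile normalization and under cyclic loess. The median difference over the 44 members was 0.00, as it was over all genes.

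Over the second pair of days every member past the threshold was lower on the later day. On day 14, 7 members were at least 1.5-fold lower than on day 12, a share of 15.9% against 0.712% of all genes. These were Mmp8, Mmp10, Mmp3, Mmp13, Mmp9, Adamts4 and Adamts6. No member was at least 1.5-fold higher, and 0.271% of all genes were. The median over the members was again 0.00.

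Over the whole span, 8 members were at least 1.5-fold lower on day 14 than on day 10 and 4 were higher. The shares of all genes were 2.98% for lower and 3.11% for higher. The 8 lower members were Mmp8, Mmp10, Adamts6, Mmp9, Adamts4, Mmp13, Mmp23 and Adamts12, and the 4 higher ones were Timp3, Adamts5, Mmp12 and Adamts15. The 3 comparisons share arrays, so their values are not independent of each other.

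**Figure D2:**
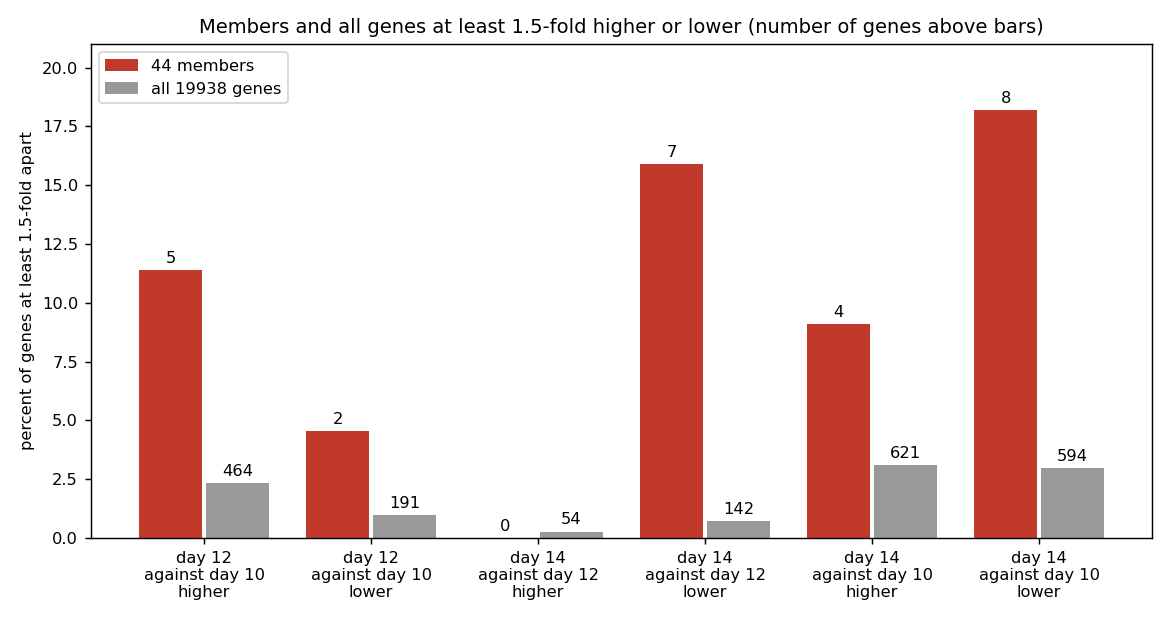
Percent of the 44 members (red, left bar) and of all 19938 genes (grey, right bar) at least 1.5-fold higher or lower, for each pair of days, with the number of genes above each bar. The tallest bars are the 7 and 8 members that were lower on day 14, at 15.9% and 18.2%.

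Among the collagenases, the enzymes that make the first cut in fibrillar collagen, Mmp8 and Mmp13 were lower on day 14 and Mmp1a and Mmp1b showed no difference. Mmp8, the collagenase stored in neutrophil granules, stood at 7.96, 8.77 and 6.35 on days 10, 12 and 14. It was highest on day 12 and lowest on day 14, 5.37-fold below day 12 and 3.06-fold below day 10. Its day 14 value lay at the lower quartile of all genes on that array, 6.35, and whether the probe set was above background there is not known. Mmp13, the main interstitial collagenase of the mouse, stood at 11.61, 11.60 and 10.62. Day 12 differed from day 10 by −0.02, and day 14 was 1.97-fold lower than day 12. Mmp1a and Mmp1b, the mouse counterparts of the human interstitial collagenase, stood at 5.57 and 5.27 on every array, below each array's lower quartile.

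Neutrophil markers were set beside Mmp8. Of 12 neutrophil markers measured, 6 were lower on day 14 than on day 12, 3 were higher and 3 equal, with a median of −0.02, and 1 reached 1.5-fold. That gene was Trem1, an activating receptor of myeloid cells, which stood at 8.38, 9.12 and 6.98. S100a8 and S100a9, which encode the abundant calprotectin subunits also made by wound keratinocytes, differed by 0.16 and −0.04, and the receptor gene Csf3r by −0.16. Cxcr2, a chemokine receptor gene, stood at 9.51, 9.85 and 9.39, highest on day 12 like Mmp8, and differed by −0.46 on day 14 against day 12. Mpo and S100a8 were instead lowest on day 12, at 6.73, 6.67 and 6.87 and at 11.13, 10.87 and 11.03. The mean level of the 12 markers was 7.95, 7.99 and 7.77 on the 3 days, and Ly6g, Elane and Camp stayed at or below 6.50 on each array. In bulk tissue, fewer cells of a type and less RNA per cell cannot be told apart, and the part of neutrophil number in the Mmp8 difference was not tested.

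The gelatinases, which cut denatured collagen and the type IV collagen of basement membranes, parted ways. Mmp9, made by keratinocytes, macrophages and neutrophils, stood at 12.07, 11.69 and 10.97, and each later day was lower than the one before. Day 12 minus day 10 gave −0.38 and day 14 minus day 12 gave −0.72, which together made day 14 2.15-fold lower than day 10. Mmp2, made chiefly by fibroblasts, stood at 13.14, 13.13 and 13.11. Its whole range was 0.03, and the sign of its day 14 differences turned with the scaling of the arrays, so no direction is given. Its mean level was at the 99.8th percentile of all genes. Whether differences are compressed that high on the array was not tested.

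Among the stromelysins, Mmp3 and Mmp10 encode enzymes that cut proteoglycans, fibronectin and laminin and can activate other pro-Mmps. Of all members, Mmp10 had the second widest range and Mmp3 the highest day 12 difference. Mmp3 stood at 9.79, 11.004 and 9.98, a single peak on day 12. Day 12 was 2.31-fold above day 10 and day 14 was 2.03-fold below day 12, which left day 14 0.19 above day 10. Mmp10, known from keratinocytes at the migrating edge of wounds, stood at 9.68, 9.81 and 8.15. Day 12 differed from day 10 by 0.13, and day 14 was 3.16-fold lower than day 12. Mmp11, which is activated inside the cell by furin-type enzymes and is typical of stroma, stayed between 11.34 and 11.46.

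Markers of wound-activated keratinocytes were set beside Mmp10 and Mmp3. Of 8 measured, 7 were lower on day 14 than on day 12, none reached 1.5-fold and the median was −0.06. The keratin genes Krt6a, Krt16 and Krt17 differed by −0.07, −0.11 and −0.01. They stood at 12.68 or more on each array, and whether differences are compressed at such levels was not tested. The mean level of this list was 12.20, 11.97 and 11.88 on the 3 days. Epgn, at 10.79, 9.51 and 9.55, was the only one of the 8 at least 1.5-fold lower on day 12 than on day 10. Fibroblast markers, 10 in number, had a median of −0.05 on day 14 against day 12. Col1a1 and Col1a2, at 13.3 or higher on each array, were equal to within 0.01. In these lists the lowest difference over the same days was −0.28, for Itga5. Neutrophil and macrophage markers had medians of −0.02 and −0.22 over those days. The lowest single values in these lists were −2.14 for Trem1 and −1.37 for Cd14. The part of any cell type in the Mmp10, Mmp3 and Mmp13 differences was not tested.

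**Figure D3:**
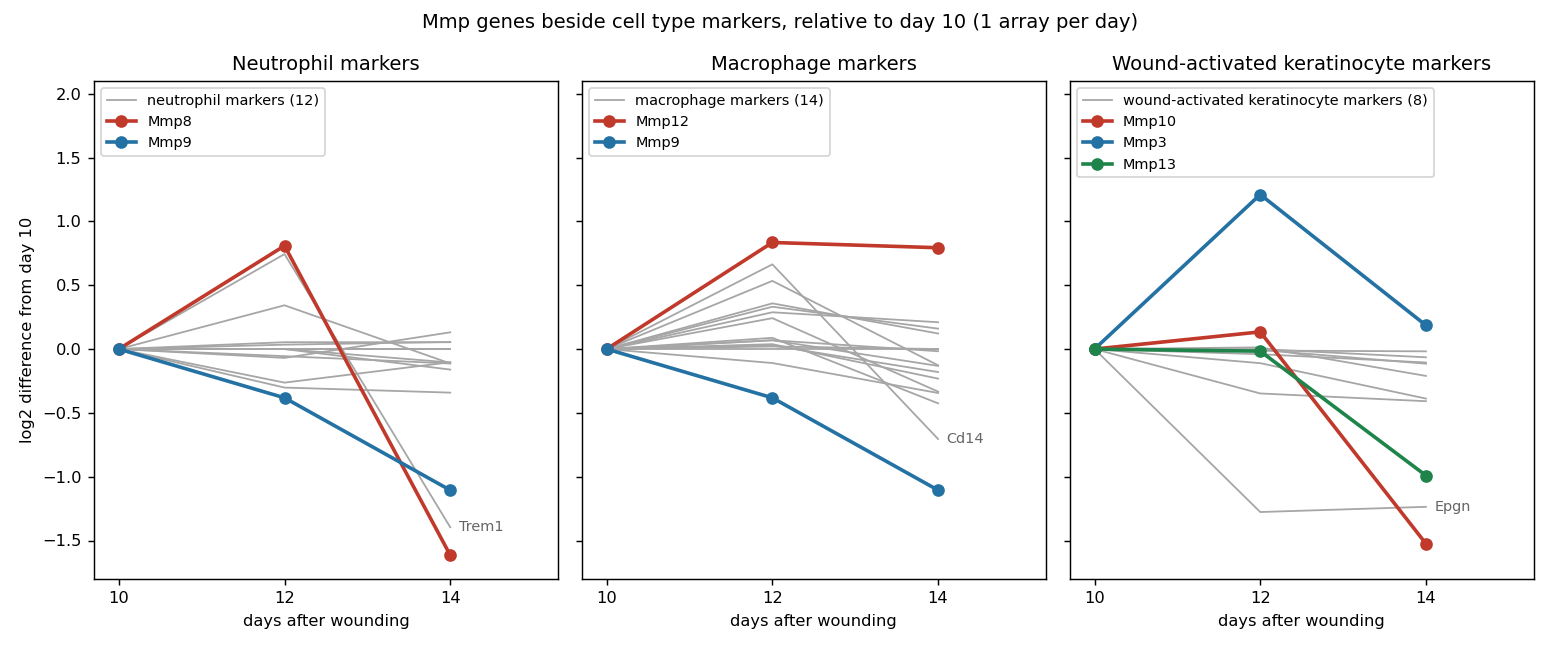
Log2 difference from day 10 (vertical axis) on days 10, 12 and 14 for Mmp genes (coloured) and markers of neutrophils, macrophages and wound-activated keratinocytes (grey), with 1 array per day. Mmp8 and Trem1 lie at −1.61 and −1.40 on day 14. The other neutrophil markers lie between −0.34 for S100a9 and 0.13 for Mpo on that day. Mmp12 stays high on day 14 at 0.79 above day 10.

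The membrane-type Mmps, which act at the cell surface, differed little. Mmp14, which activates pro-Mmp2 and cuts fibrillar collagen around fibroblasts, stood at 12.77, 12.62 and 12.58, a difference of −0.19 on day 14 against day 10. Its mean level was at the 99.3rd percentile of all genes, where compression of differences was not tested. Mmp16, Mmp17, Mmp24 and Mmp25 had equal values on days 10 and 12, and their day 14 differences lay between −0.10 and 0.09. None of the 5 genes reached 1.5-fold in any comparison.

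Of the remaining 8 Mmps, Mmp12 and Mmp23 differed by at least 1.5-fold, in opposite directions and both by day 12. Mmp12, the metalloelastase of macrophages, stood at 11.74, 12.58 and 12.54. It was 1.78-fold higher on day 12 than on day 10, and day 14 differed from day 12 by −0.04. Mmp23, an atypical member held in the membrane by its amino end, stood at 11.87, 11.28 and 11.19, and was 1.60-fold lower on day 14 than on day 10. Mmp28, known from keratinocytes, and Mmp27 were 0.38 and 0.37 higher on day 14 than on day 10, short of 1.5-fold. Mmp19 stayed between 11.36 and 11.47, and the matrilysin gene Mmp7, the enamel protease gene Mmp20 and Mmp21 held single values between 5.89 and 6.27.

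Macrophage markers were higher on day 12 than on day 10 in 12 of 14 cases, with a median of 0.08, and were lower on day 14 than on day 12 in 13 of 14, with a median of −0.22 and a range from −1.37 for Cd14 to 0.00. The mean level of the list was 10.77, 10.96 and 10.63. Adgre1 and Csf1r, which define the lineage, were 0.36 and 0.33 higher on day 12 than on day 10 and differed by −0.24 and −0.17 on day 14 against day 12. Mmp12 had a larger day 12 difference than any of the 14 markers, of which Cd14 was the highest at 0.66. Between day 14 and day 12, when Mmp12 differed by −0.04, Cd14 was 2.58-fold lower and Itgam 1.58-fold lower on day 14. The part of macrophage number in the Mmp12 and Mmp9 differences was not tested.

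Among the 7 Adamts genes whose products cut aggrecan or versican, 5 were higher and 2 lower on day 14 than on day 10. Adamts5, a principal aggrecanase, stood at 9.54, 10.42 and 10.59. It was 1.83-fold higher on day 12 than on day 10 and 2.07-fold higher on day 14 than on day 10. Adamts15 followed with 8.53, 9.05 and 9.22, and was 1.61-fold higher on day 14 than on day 10. Adamts4, the other main aggrecanase, ran the opposite way, at 10.56, 10.18 and 9.51, and was 2.08-fold lower on day 14 than on day 10. Adamts1, whose product cuts versican, stood at 9.82, 10.03 and 10.04 and was 0.22 higher on day 14 than on day 10. Adamts8 and Adamts20 differed by 0.25 and 0.44 in the same comparison at low levels of at most 7.09, and Adamts9 by −0.26.

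Adamts3 and Adamts14 encode procollagen N-proteinases, which remove the amino propeptide so that collagen can form fibrils. They differed by −0.34 and −0.06 on day 14 against day 10. Adamts3 was read by 16 probe sets, of which 15 were lower on day 14 and 1 was equal, with differences from −0.87 to 0.00. Their mean stood at 7.74, 7.59 and 7.40.

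Among the other 9 Adamts genes was Adamts6, the only one of the 44 members at least 1.5-fold lower over each pair of neighbouring days. Adamts6 stood at 9.35, 8.70 and 8.07, with differences of −0.65 and −0.63 over the first and second pair of days, and was 2.43-fold lower on day 14 than on day 10. Adamts12, whose product cuts cartilage oligomeric matrix protein, stood at 11.43, 11.05 and 10.82, and was 1.52-fold lower on day 14 than on day 10. That last value lies at the threshold and was −0.57, short of it, under quantile normalization and under cyclic loess. Adamts16 differed by −0.44, Adamts7 by −0.21 and Adamts10 by −0.10 in the same comparison. Adamts19 was 0.43 higher at levels of at most 6.98, and Adamts13, which encodes the protease of von Willebrand factor, Adamts17 and Adamts18 stayed within 0.09.

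Contractile and vessel markers were lower over the same days as Adamts6 and Adamts12. All 10 myofibroblast markers were lower on day 14 than on day 10; the median was −0.96 and the mean level was 11.35, 10.63 and 10.29 on the 3 days. Of 10 endothelial markers, 9 were lower, with a median of −0.56. The part of either cell type in the Adamts differences was not tested.

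**Figure D4:**
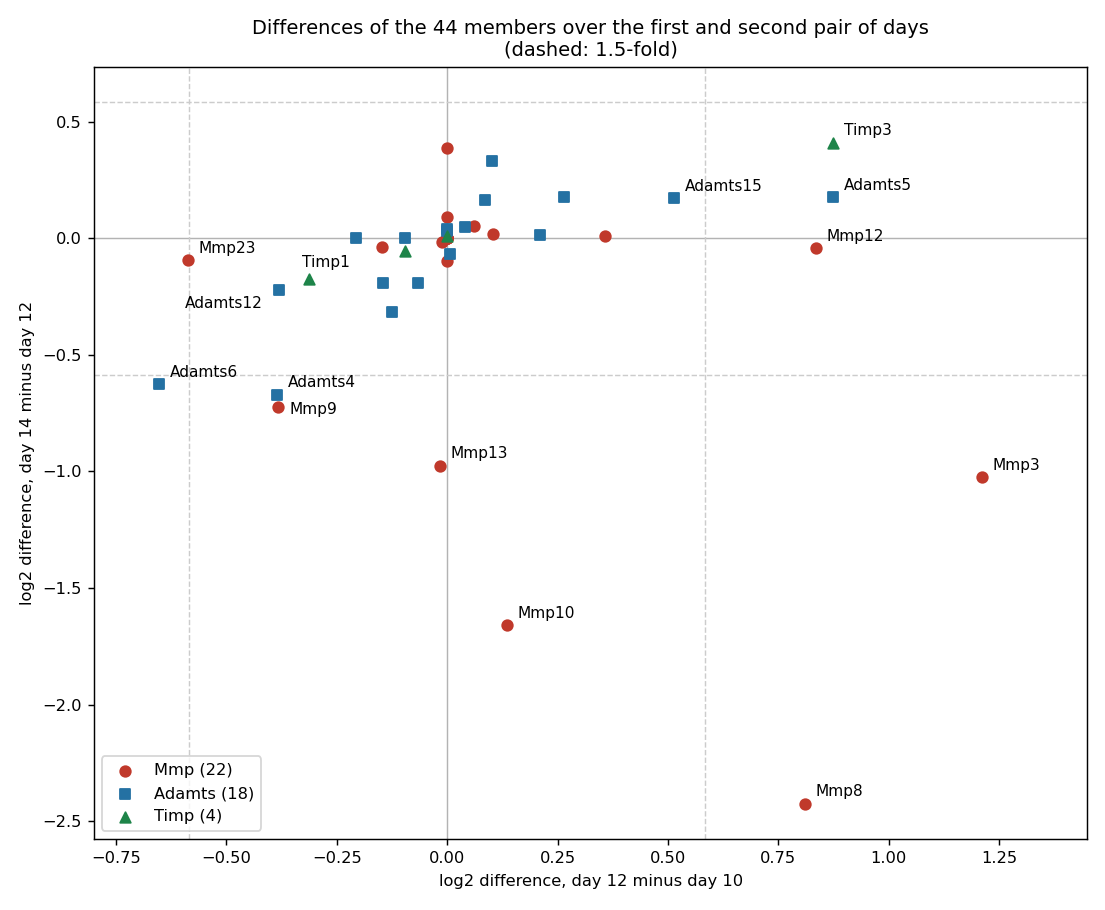
Log2 difference of each of the 44 genes on day 12 minus day 10 (horizontal) and on day 14 minus day 12 (vertical), with the day 12 array shared by both axes. Mmp8 and Mmp3 lie at the lower right, higher on day 12 and lower again on day 14, while Timp3 and Adamts5 lie at the upper right and Adamts6 at the lower left.

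The inhibitors also parted ways. Timp3, which binds the matrix and is the Timp that blocks Adamts proteases as well as Mmps, stood at 10.32, 11.20 and 11.60. It was 1.83-fold higher on day 12 than on day 10 and 2.44-fold higher on day 14 than on day 10, the highest positive difference among the 44 members over the whole span. Timp1, which is induced with inflammation and repair, stood at 11.94, 11.63 and 11.45, a difference of −0.49 on day 14 against day 10. Timp2, which takes part with Mmp14 in activating pro-Mmp2, stood at 12.76, 12.66 and 12.61, a difference of −0.15. Like Mmp14, Timp2 was at the 99.3rd percentile of mean level, where compression of differences was not tested. Timp4 stayed at 5.84 to 5.85, below the lower quartile of every array, and its sign turned with cyclic loess.

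Markers of skin appendages and of differentiated keratinocytes were higher over the same days as Timp3, Adamts5, Adamts15 and Mmp12. Of 12 sebaceous and hair follicle markers, 11 were higher on day 14 than on day 10 and 8 by at least 1.5-fold, with a median of 1.15. Their mean level was 7.39, 8.24 and 8.47 on the 3 days, and 4 of the 12 were above the median level of all genes. Of 8 differentiated keratinocyte markers, 7 were higher on day 14, with a median of 0.84 and a mean level of 10.64, 11.48 and 11.66. Mast cell markers, 7 in number, had a median of 0.75 in that comparison and a mean level of 7.71, 8.29 and 8.61. The part of these cells in the Timp3 and Adamts differences was not tested.

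In the wider protease network, 34 genes of Mmp activation and cell-surface partners were measured. Between day 14 and day 10, 2 of them were higher by 1.5-fold or more and 2 were lower, and the median was −0.0025. Dpp4, a surface peptidase of skin fibroblasts, and Pcsk6, a proprotein convertase, were 2.25-fold and 2.23-fold higher on day 14. Tfpi2, a secreted inhibitor of plasmin, was 1.996-fold lower, and Plat, which encodes tissue plasminogen activator, was 1.66-fold lower. Of 12 Adam proteases, Adam33 was 1.66-fold higher and Adam8, found in myeloid cells, was 1.56-fold lower, while Adam19 and Adam12 differed by −0.55 and −0.41. None of the 7 Adamts-like genes reached 1.5-fold, and Thsd4, Papln, Adamtsl1 and Adamtsl5 differed by 0.32, 0.27, −0.13 and 0.09.

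Transcription factors of the AP-1 and Ets families with the Runt-domain factor Runx1, and matrix substrates were listed for the same comparison. Of 13 factor genes, 1 was lower by at least 1.5-fold, and the median was −0.06. This was Elk3, at 11.50, 11.09 and 10.76, while Ets1, Runx1 and Jun differed by −0.42, −0.39 and 0.35. Fos, an AP-1 subunit encoded by an immediate early gene, was singled out after its values were seen. It stood at 8.64, 9.51 and 8.53, 1.82-fold above day 10 on day 12 and 1.97-fold below day 12 on day 14. Fosb was 0.31 higher on day 14 than on day 10, Fosl1, Fosl2, Junb and Jund each stayed within 0.19 over the 3 days, and the part of Fos in any Mmp difference was not tested. Of 16 substrate genes, Eln, which encodes elastin, was 2.50-fold higher on day 14 and no other reached 1.5-fold. Tnc, Bcan and Col4a1 differed by −0.54, −0.38 and −0.16. Eln stood at 8.94, 10.26 and 10.26, so its difference, like that of the metalloelastase gene Mmp12, lay between day 10 and day 12. A link between Eln and Mmp12 was not tested.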

How the data were processed

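Pooled wound tissue was measured on 1 array per day. The log2 values, 1 per probe set and array, are as deposited by the authors, and per the submitters' processing notes RMA and Partek 6.6 were used, in roles not given. That the scale is log2 was taken from the range of 4.37 to 14.1. No scanner output was used, so detection per probe set is unknown. Of 35556 probe sets, 21789 had 1 gene symbol in the platform annotation and were averaged per symbol to 19938 genes. Of the 44 members, 41 had 1 probe set. No array was rescaled, and members were counted with no level filter.

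A gene was counted when 2 days differed by at least 1.5-fold, and no p-value is given. The members and lists were chosen with earlier results of these data known. All 3 values were given for members past that size between any pair of days and, whatever their values, for Mmp2, Mmp3, Mmp9, Mmp13, Mmp14, Adamts1, Adamts2 (not analysed here) and the Timps, and the 4 largest differences between day 14 and day 10 were named from each further protease, factor or substrate list. Genes singled out from marker lists were chosen after their values were seen. Alternatives were 2-fold, a level filter on the mean or on the highest value, median centring, quantile normalization, cyclic loess (limma 3.58.1) and the brightest probe set per gene. Counting was tested on simulated data. Promoter windows are RefSeq's, on GRCm38.p6; protein sequences were not used.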

Additional observations from a re-analysis of the deposited data

How the results depend on the processing

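With a 2-fold threshold, members higher and lower numbered 1 and 0 for day 12 over day 10, 0 and 3 for day 14 over day 12, and 2 and 5 for day 14 over day 10. The shares of all genes were 0.787% and 0.13%, 0.0552% and 0.196%, and 1.25% and 0.512%, in the same order. Members lower on day 12 against day 10 numbered 1 under quantile normalization and under cyclic loess, with Mmp23 at −0.58. The other counts at 1.5-fold stayed within 1.5 times the reported number under the level filters, the scalings and the choice of probe set. With either level filter, the median over members was −0.055 for day 14 minus day 12 and −0.10 for day 14 minus day 10. For 19 members, 171 differences were recomputed under the 3 scalings, of which 170 moved by less than the robust SD of a probe set's difference. The exception was Adamts15, at 0.22 in place of 0.17 for day 14 minus day 12 under quantile normalization. Shifts under the scalings ran only from −0.035 to 0.056, so few could pass that SD, and they cover no spread between pools. None of the differences past 1.5-fold changed direction. No paired analysis was possible because each day had 1 array. Leaving out an array would remove a day, and the number of arrays limits all values.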
